A study of Mus musculus with 8 samples.

Results

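The mitosis, spindle and kinetochore genes are 54 genes chosen by symbol for the proteins that start mitosis, build the spindle, attach chromosomes to it, pull them apart and divide the cell. All 54 were among the 15576 genes of the deposited count table, and all 54 had enough counts to be tested. Sorted marrow cells of untreated mice with chronic myeloid leukemia (CML) and of such mice after imatinib (CML-TKI) were compared, with 4 libraries each. The study names the cells of both groups leukemic stem cells (LSCs). LSC is used here as that name only, since stem cell markers differed between the groups, as given below. Imatinib is a tyrosine kinase inhibitor (TKI) that blocks BCR-ABL, and the labels give 400 mg/kg by gavage on alternate days for 4 weeks, whereas the study's text gives a lower dose for this comparison. Both groups carried the double transgenic BCR-ABL×SCL-tTA genotype on a C57BL/6 background, in which an Scl enhancer directs the tTA driver to stem and progenitor cells and BCR-ABL comes on once tetracycline is withdrawn. The age of the mice, and whether a library is 1 animal or a pool, are not given in the sources used here. The labels name a Lin-Sca1+cKit+Flt3- gate that was CD150- and CD48+ for every library, whereas the study's text defines LSCs as CD150+ and CD48-. Nothing in the labels says that libraries of a group came from separate mice, so the p-values measure the spread between these libraries only.

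Mitosis is driven by Cdk1 bound to cyclins A and B, with the Polo and Aurora kinases acting beside it at centrosomes, kinetochores and the midzone. Kinetochores, anchored on the centromeric histone Cenpa, hold microtubules through the Ndc80 complex, and the spindle checkpoint keeps the anaphase-promoting complex silent until every chromosome is attached. Securin and the cyclins are then destroyed, separase cuts cohesin, and the midzone, centralspindlin and anillin direct the cleavage furrow. Transcripts of most of these genes rise in G2 and M phase and are low in resting cells, and in the bone marrow the most primitive stem cells are largely quiescent whereas their progeny divide.

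The libraries held 4939644 to 8620101 counts in CML and 1041552 to 5104268 in CML-TKI LSCs, CML-TKI 3 being the smallest. The ribosomal RNA gene Rn45s took 20.2 to 38.3% and 9.23 to 22.5% of them. CML 1, 2 and 3 were far more alike than other libraries of a group: over the mitotic genes their biological coefficient of variation was 7.57%, against 37.5% with CML 5 and 30.2% among the CML-TKI libraries. The remaining CML library carries the number 5 in the count table, while the labels number the CML samples 1 to 4. Cell type markers also differed between the groups. The summed level of 13 granulocyte markers was 174 to 289.7 CPM in CML and 1486 to 8492 CPM in CML-TKI libraries, lowest in CML-TKI 1 within its group, and 12 of the 13 were higher past the threshold, with none at 0 in any library. That of 10 monocyte and macrophage markers was 30.3 to 49.7 and 759 to 3927 CPM, with up to 2 of them at 0 in a CML library and none at 0 in a CML-TKI library, and 9 of the 10 were higher. The 12 HSC markers summed to 1539.8 to 1708 and 69.3 to 514 CPM, with 6 of them (Procr, Mecom, Fgd5, Hoxb5, Esam and Mycn) at 0 in CML-TKI 2, 5 in CML-TKI 4 and 1 in CML-TKI 3, and 5 of the 11 tested were lower. The 8 megakaryocyte markers summed to 1483 to 1781 and 51.7 to 613 CPM with up to 3 at 0. The 12 erythroid markers summed to 772 to 915 and 339 to 25402 CPM with up to 2 at 0, highest in CML-TKI 3. There Hba-a1 was at 19496 and Hbb-bt at 4187 CPM, whereas Klf1, Car1 and Ermap were highest in CML-TKI 4. The 12 lymphoid markers summed to 24.5 to 30.5 and 30.8 to 351 CPM with 2 to 6 at 0. Of the genes of the gate, Kit was at 759 to 1017 and 193 to 289 CPM in CML and CML-TKI libraries. Slamf1 (CD150) was at 28.8 to 37.5 and 0.616 to 6.53 CPM and Cd48 at 3.84 to 6.36 and 39.6 to 177 CPM. By these RNA levels the CML libraries were nearer to the study's CD150+ and CD48- definition. The CML-TKI libraries were nearer to the CD150- and CD48+ gate of the labels. Whether the sorted cells of both groups were of the same type was not tested. Ly6a (Sca1) was at 33.01 to 38.2 and 1.55 to 43.96 CPM, lowest in CML-TKI 4, and Flt3 at 15.6 to 17.1 and 7.697 to 62.8 CPM, highest in CML-TKI 4. The part of these marker differences in the results on mitotic genes was not tested. In bulk libraries a larger share of dividing cells and more mitotic RNA per dividing cell cannot be told apart.

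The log2 fold change from CML to CML-TKI LSCs was positive for all 54 mitotic genes, and 12 of them were higher past the threshold (edgeR's quasi-likelihood test, Benjamini-Hochberg adjusted p under 0.05 over all 11937 genes tested), which is 22.2% of them. Of all genes tested 6.29% were higher, and 10.2% changed in either direction. The 12 were the kinases Plk1 and Aurka, cyclin A2 (Ccna2), the checkpoint kinase Bub1, the kinetochore gene Nuf2, survivin (Birc5), the kinesin Kif20a, the condensin subunit Ncapg and the cytokinesis genes Racgap1, Ect2, Anln and Cep55. In the other direction 0 of the 54 passed, where 3.93% of all genes did, and an unadjusted p under 0.05 put 0 lower in edgeR, DESeq2 or limma-voom. At an unadjusted p under 0.05 edgeR found 26 of the 54 higher, beside 13.7% of all genes. The median log2 fold change of the 54 was 0.82, from 0.202 for Ncapd2 to 1.83 for Ect2, whereas the median of all genes was 0.00 and 50% of them were positive. For 23 of the 54 every CML-TKI library lay above every CML library, and for 0 below, beside 10.3% and 13.1% of all genes tested. With library sizes taken as total counts without Rn45s, 11 of the 12 stayed past the threshold (Kif20a did not), beside 5.03% of all genes, and 20 did not overlap, beside 8.23%. The split of all calls moved from 751 higher and 469 lower to 601 higher and 585 lower.

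Summed over the 54 genes, the level was 4238, 4558, 4384 and 2617 CPM in CML 1, 2, 3 and 5 and 6166, 6732, 7027 and 8351 CPM in CML-TKI 1 to 4. CML 5 was the lowest of all 8 libraries and CML-TKI 4 the highest, and the groups did not overlap. Levels of single genes are given below as CPM (TMM-normalized counts scaled to a common library size) in the same order of libraries, CML 1, 2, 3 and 5, then CML-TKI 1 to 4, and are compared only between libraries. As a share of the raw counts of a library, without any normalization, the 54 genes took 0.222 to 0.476% in CML and 0.6197 to 0.896% in CML-TKI libraries, and 0.3601 to 0.598% and 0.773 to 1.04% once Rn45s was left out. The plot of the mitotic genes by library shows these levels gene by gene and the genes that were low in CML 5.

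**Figure D1:**
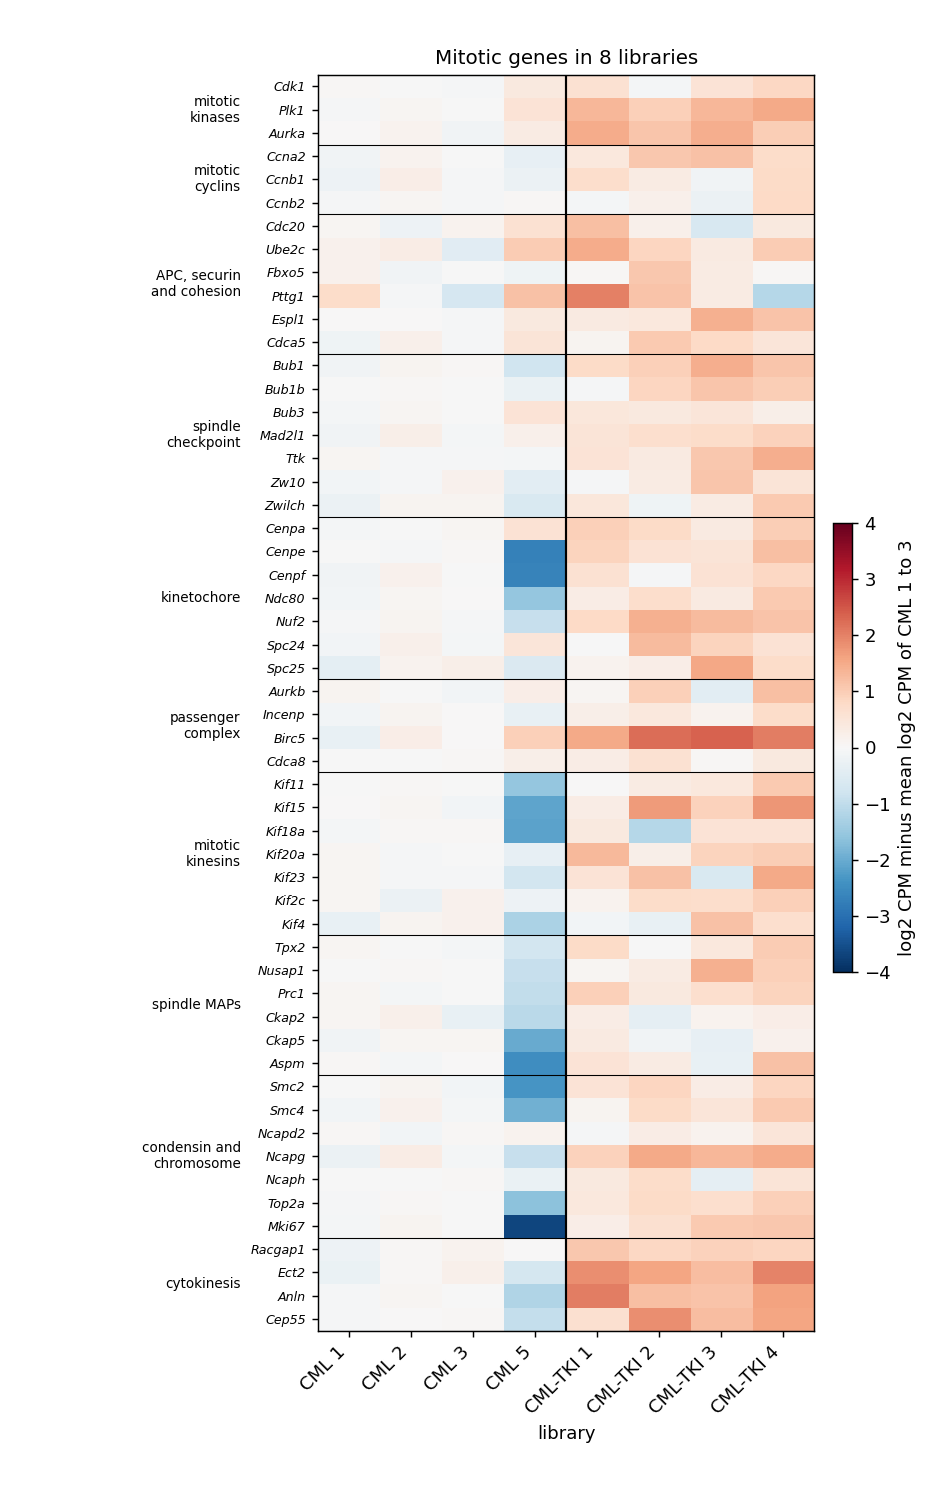
Level of the 54 mitotic genes (rows, grouped by role) in the 8 libraries (columns), as log2 CPM minus the mean log2 CPM of CML 1 to 3, from blue (lower) to red (higher). CML 1 to 3 are nearly even, 35 of the 54 genes have their lowest CML value in CML 5, and most cells of the 4 CML-TKI columns are red.

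The count of calls moved with the libraries used, while the direction turned only for Ccnb2, Cdc20 and Pttg1 when a library was left out. With each library left out in turn, between 3 (without CML 1) and 19 (without CML-TKI 1) of the 54 were past the threshold. There were 6 without CML 2, 5 without CML 3 and 10 without CML 5. Ect2, Anln and Ncapg were past it in all 8 of these fits. In the fit without CML 5, 27 of the 54 did not overlap (beside 13.3% of all genes tested) and the median log2 fold change was 0.703, with 54 of 54 positive. Of all genes tested, the share called higher was 2.97% without CML 1, 3.12% without CML 2, 3.34% without CML 3, 4.48% without CML 5 and 9.64% without CML-TKI 1. When CML 1 to 3 were summed to 1 library, which leaves 2 CML libraries, edgeR put 0 of the 54 past the threshold and 18 at an unadjusted p under 0.05, beside 0.812% and 7.94% of all genes. All 54 log2 fold changes stayed positive with a median of 0.92. This alternative was not run with DESeq2 or limma-voom, which on the 8 libraries put 18 and 22 of the 54 past the threshold, beside 9.75% and 10.4% of the genes with an adjusted p.

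**Figure D2:**
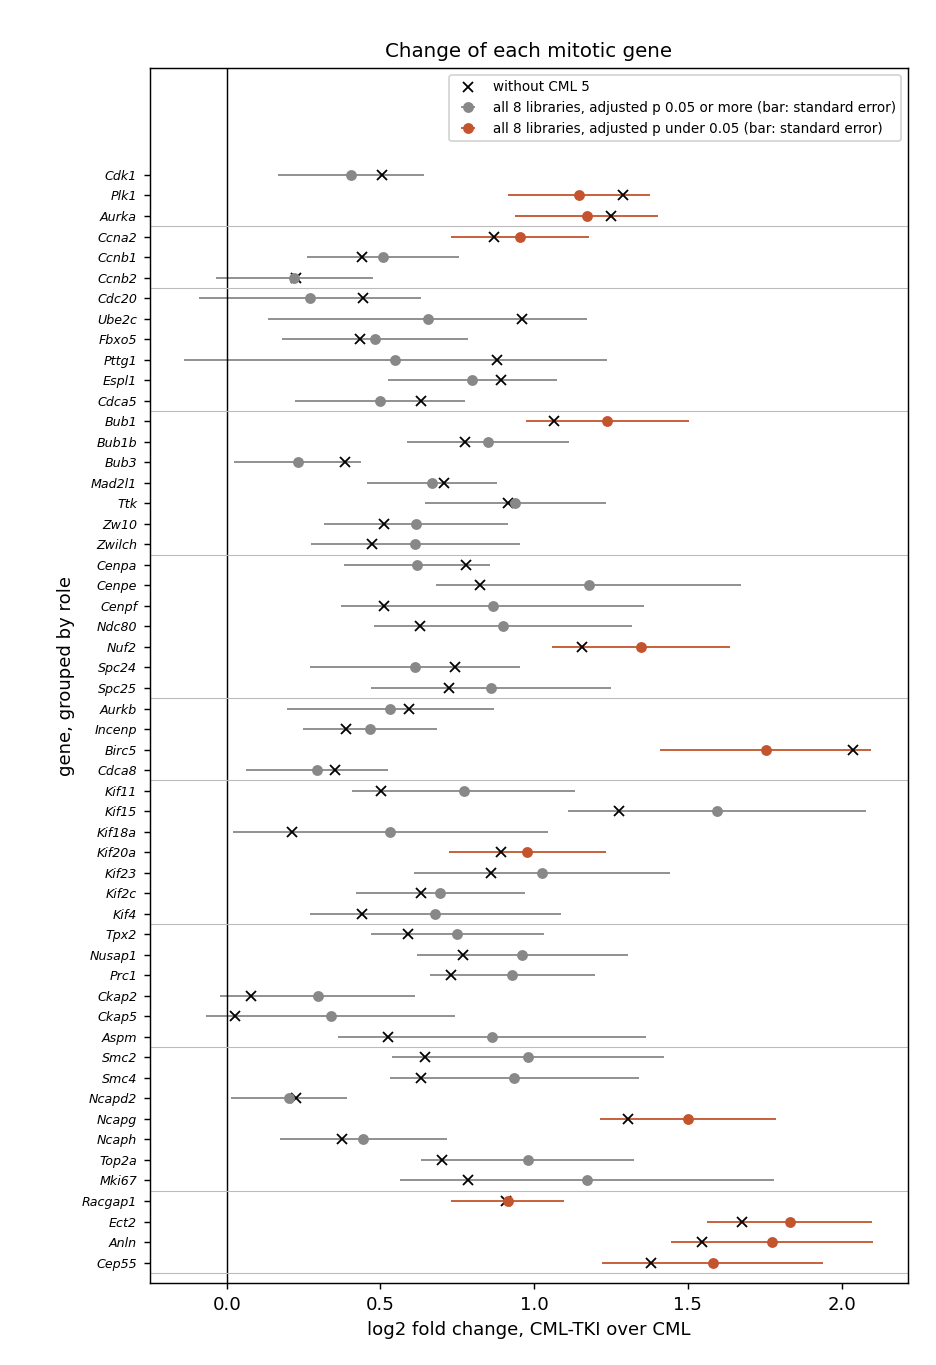
Log2 fold change of each mitotic gene, CML-TKI over CML (x axis), in the fit of all 8 libraries (dots, bars are ± 1 standard error, red where the adjusted p is under 0.05) and without CML 5 (crosses), grouped by role on the y axis. Every dot and cross lies above 0, and the 4 genes placed under cytokinesis are all red.

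Genes of G2 and M phase are known to be switched through the cell cycle genes homology region (CHR), a short element near the start site, spelled TTTGAA or TTCGAA, that binds the DREAM and MMB complexes, often with CCAAT boxes bound by NF-Y upstream of it. The promoters of the 54 genes were searched in RefSeq's GRCm38.p6 table. It matched 46 of the 54 symbols with 50 promoters of 300 bases (250 before to 50 after each start). TTTGAA or TTCGAA was found on either strand in 41 of the 50 promoters (82%), compared with 19.2% of all 32851 promoters of the table and 14.2% of the 12084 promoters of genes tested here. CCAAT was found on either strand in 35 of the 50 (70%), compared with 37.4% and 38.1%, and both were found in 33 (66%), compared with 7.52% and 5.93%. The last T of CCAAT can also be the first of TTTGAA, and TTCGAA reads the same on both strands. The 37 genes with TTTGAA or TTCGAA had a median log2 fold change of 0.86 and the 9 without it, Birc5, Ccnb1, Cenpe, Kif18a, Mad2l1, Ncaph, Nuf2, Nusap1 and Pttg1, 0.67, and no test was made between them. A match is a description of the sequence and not a binding site. The 54 genes were chosen for their roles in mitosis, so these shares describe the list and not its change between the groups.

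Ect2, which had the largest change of the 54, is shown with the 120 bases before the upstream of its 2 starts in the table (GRCm38.p6, chr3:27153879-27153998, minus strand, 5′ to 3′), where capitals mark 1 TTTGAA and 2 CCAAT boxes:
Ect2: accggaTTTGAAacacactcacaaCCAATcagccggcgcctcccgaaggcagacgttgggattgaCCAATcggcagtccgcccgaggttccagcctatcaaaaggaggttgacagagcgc
The 30 bases around the match nearest the start are shown for the genes past the threshold that had a match in the table and, for comparison, for Cdk1 and Ccnb2, which did not pass it, each on the strand of its gene with the match in capitals:
Ect2 (chr3:27153822-27153851, minus strand): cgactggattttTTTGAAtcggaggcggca
Anln (chr9:22389168-22389197, minus strand): ggggcgctgaaaTTCAAAttttgaacggcc
Cep55 (chr19:38054996-38055025, plus strand): acagccgcgggaTTCAAActcccggaagcg
Racgap1 (chr15:99651634-99651663, minus strand): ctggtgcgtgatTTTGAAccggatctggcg
Ncapg (chr5:45669883-45669912, plus strand): ccgcgatagttgTTTGAAaactctggcgct
Bub1 (chr2:127831828-127831857, minus strand): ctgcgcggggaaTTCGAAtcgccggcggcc
Aurka (chr2:172370521-172370550, minus strand): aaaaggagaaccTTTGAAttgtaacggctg
Plk1 (chr7:122159453-122159482, plus strand): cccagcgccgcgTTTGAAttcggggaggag
Cdk1 (chr10:69352910-69352939, minus strand): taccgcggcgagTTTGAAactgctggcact
Ccnb2 (chr9:70421533-70421562, minus strand): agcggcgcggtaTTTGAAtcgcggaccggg
Counted from 1 at the first transcribed base, the match begins at base 16 in Ect2 (from the downstream start), base 6 in Racgap1 and base 31 in Plk1, inside the transcript. In Ncapg and Cdk1 it lies before the start that the table gives. That start is inside the span of the gene in Ncapg, and so are the starts used for Ect2, Aurka, Anln and Cep55. The 120 bases shown for Ect2 thus lie inside its span (chr3:27097222-27154253) and not upstream of the whole gene. Bub1 carries the TTCGAA form, and in Anln and Cep55 the match nearest the start is on the opposite strand and reads TTCAAA. Anln also holds TTTGAA on its own strand from base 29, within the bases shown and left in lower case.

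Of all roles, cytokinesis had the largest median log2 fold change, 1.68, with 4 of 4 genes past the threshold, beside 6.29% of all genes. The roles were chosen with earlier results known and were not tested against each other. Kif23 of centralspindlin and Prc1 of the midzone were placed in other roles and did not pass it in edgeR. The positions beside gene names are the spans of the genes in GRCm38.p6. Ect2, an exchange factor that starts the cleavage furrow at the cell equator (chr3:27097222-27154253), was at 30.04, 37.2, 41.7 and 22.3 CPM in CML and 132, 107, 84.9 and 141 CPM in CML-TKI. Every CML-TKI library was above every CML library, and the lowest was CML-TKI 3 (log2 fold change 1.83, SE 0.27, edgeR adjusted p = 0.00317). The mean was 32.8 ± 8.496 CPM in CML against 116 ± 25.1 CPM in CML-TKI (SD, n = 4 each). Its log2 fold change ran from 1.68 to 1.96 with each library left out in turn, with an adjusted p of at most 0.0195. Anillin (Anln, chr9:22331214-22389211), the scaffold of the contractile ring, was at 58.4, 63.3, 59.5 and 26.1 CPM in CML and 250.01, 139.8, 133 and 184 CPM in CML-TKI. It was highest in CML-TKI 1 and lowest in CML 5, without overlap (log2 fold change 1.77, SE 0.33, edgeR adjusted p = 0.00965). Racgap1, a subunit of centralspindlin (chr15:99620496-99651656), was at 62.6, 74.4, 80.1 and 72.8 CPM in CML and 151, 127, 137 and 131 CPM in CML-TKI. Its libraries lay close together within each group and far apart between them (log2 fold change 0.91, SE 0.18, edgeR adjusted p = 0.0127). The call was lost in 2 of the 8 fits that left out a library, with an adjusted p of up to 0.0692. The midbody gene Cep55 (chr19:38054970-38074425) was at 15.8, 16.3, 16.7 and 8.33 CPM in CML and 25.3, 58.8, 38.1 and 48.6 CPM in CML-TKI. CML 5 was the lowest and CML-TKI 1 the lowest of its group (log2 fold change 1.58, SE 0.36, edgeR adjusted p = 0.0227), and the call held in 2 of those 8 fits. Kif23, the kinesin partner of Racgap1 in centralspindlin, was at 28.1, 26.1, 25.9 and 15.98 CPM in CML and 39.2, 60.3, 17.4 and 76.2 CPM in CML-TKI. CML-TKI 3 was below CML 1 to 3, and the gene did not pass the threshold (log2 fold change 1.02, SE 0.42, edgeR adjusted p = 0.153), except in limma-voom (adjusted p = 0.0311) and without CML-TKI 3.

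Among the kinases that drive mitosis, Plk1 and Aurka were higher in CML-TKI LSCs and Cdk1 did not pass the threshold. Polo-like kinase 1 (Plk1, chr7:122159435-122169884) was at 33.96, 36.6, 34.6 and 50.7 CPM in CML and 87.6, 68.3, 88.2 and 101 CPM in CML-TKI. The groups did not overlap, and CML 5 was the highest CML library (log2 fold change 1.15, SE 0.23, edgeR adjusted p = 0.0133). Aurora A (Aurka, chr2:172356190-172370886), which matures the spindle poles, was at 28.1, 30.3, 24.96 and 34.8 CPM in CML and 76.98, 60.04, 75.1 and 54.8 CPM in CML-TKI. All CML-TKI libraries were above all CML libraries (log2 fold change 1.17, SE 0.23, edgeR adjusted p = 0.0123). Each call held in 5 of the 8 fits that left out a library, with adjusted p up to 0.0613 for Plk1 and 0.0585 for Aurka, and was lost without CML 1, 2 or 3. Cdk1 was at 80.2, 76.9, 74.5 and 102 CPM in CML and 119, 72.4, 113 and 136 CPM in CML-TKI, with CML-TKI 2 below every CML library (log2 fold change 0.404, SE 0.24, edgeR adjusted p = 0.323).

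Of the 3 mitotic cyclins, cyclin A2 (Ccna2, chr3:36564865-36573038), the partner of Cdk2 and Cdk1 in S and G2 phase, passed the threshold. It was at 129.7, 157, 139.6 and 113 CPM in CML and 192, 299, 319 and 237 CPM in CML-TKI, without overlap (log2 fold change 0.95, SE 0.22, edgeR adjusted p = 0.0262). CML-TKI 1 was the lowest of its group, and the call held in 3 of the 8 fits that left out a library (adjusted p up to 0.0957). Cyclin B1 (Ccnb1), the main partner of Cdk1, was at 87.1, 121, 98.9 and 85.4 CPM in CML and 166, 126, 91.5 and 172 CPM in CML-TKI, with CML-TKI 3 inside the CML range (log2 fold change 0.51, SE 0.25, edgeR adjusted p = 0.229). Cyclin B2 (Ccnb2) changed least (log2 fold change 0.22, adjusted p = 0.641) and its sign turned without CML-TKI 4 (log2 fold change -0.038).

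The genes that act on the anaphase-promoting complex and on sister chromatid cohesion had log2 fold changes of 0.27 to 0.798, and 0 of the 6 passed the threshold in edgeR (1 at an unadjusted p under 0.05), with 1 of them, Espl1, past it in limma-voom and 0 in DESeq2. Separase (Espl1), the protease that cuts cohesin, was at 84.7, 85.1, 80.8 and 109 CPM in CML and 108, 112, 223 and 185 CPM in CML-TKI. CML-TKI 1 lay just below CML 5, the only overlap between the groups (log2 fold change 0.798, SE 0.27, edgeR adjusted p = 0.0968), and without CML-TKI 1 its call was made. Securin (Pttg1), the inhibitor of separase, had few counts and was at 8.52, 4.99, 3.26 and 11.6 CPM in CML and 20.8, 11.4, 6.53 and 2.33 CPM in CML-TKI (log2 fold change 0.55, SE 0.69, edgeR adjusted p = 0.669). CML-TKI 4 was the lowest library of all 8 and CML-TKI 1 the highest, and the sign turned without CML-TKI 1. With all libraries thinned to the smallest total, Pttg1 was lower past the threshold. Cdc20, which activates the complex, was also highest in CML-TKI 1, with 135 CPM in CML-TKI 1, 37.02 CPM in CML-TKI 3 and 50.05 to 89.2 CPM in CML libraries (log2 fold change 0.27, adjusted p = 0.692). Its sign turned without that library (log2 fold change -0.12). The ubiquitin-conjugating enzyme Ube2c, which works with the complex and had few counts, was at 4.74, 5.18, 3.07 and 8.605 CPM in CML and 11.9, 7.697, 5.44 and 8.53 CPM in CML-TKI, with overlap (log2 fold change 0.65, SE 0.52, edgeR adjusted p = 0.471). The inhibitor Fbxo5 (Emi1; log2 fold change 0.48, adjusted p = 0.352) and sororin (Cdca5; log2 fold change 0.499, adjusted p = 0.292) overlapped between the groups.

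In the spindle checkpoint, 1 of 7 genes passed the threshold in edgeR and the median log2 fold change was 0.67. In DESeq2 and in limma-voom 4 of the 7 passed it, Bub1, Bub1b, Mad2l1 and Ttk. Of the genes with an adjusted p, 9.75% and 10.4% were higher in these tools, which applies to their counts in other roles as well. The kinase Bub1 (chr2:127800197-127831859), which recruits the checkpoint to kinetochores, was at 39.5, 46.98, 45.7 and 25.3 CPM in CML and 73.97, 84.4, 119.8 and 94.9 CPM in CML-TKI. All CML-TKI libraries were above all CML libraries, of which CML 5 was the lowest (log2 fold change 1.24, SE 0.27, edgeR adjusted p = 0.0175), and the call held in 7 of the 8 fits that left out a library. The Mps1 kinase Ttk, at 24.9, 23.01, 22.8 and 22.5 CPM in CML and 34.5, 30.2, 50.1 and 64.6 CPM in CML-TKI, did not overlap either but missed the threshold (log2 fold change 0.94, SE 0.295, edgeR adjusted p = 0.0746). The CML libraries were nearly even and CML-TKI 3 and 4 the highest. Mad2 (Mad2l1) did not overlap (log2 fold change 0.67, adjusted p = 0.0759), and its log2 fold change was 0.27 with the trend on GC content and length removed (adjusted p = 0.647). BubR1 (Bub1b) overlapped in CML-TKI 1 (log2 fold change 0.85, adjusted p = 0.0712). Bub3 (log2 fold change 0.23, adjusted p = 0.527) and the RZZ subunits Zw10 (log2 fold change 0.62, adjusted p = 0.229) and Zwilch (log2 fold change 0.61, adjusted p = 0.291) overlapped between the groups.

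At the kinetochore, 1 of 7 genes passed the threshold in edgeR and DESeq2 and 2, Nuf2 and Cenpa, in limma-voom. The median log2 fold change was 0.87. Nuf2 (chr1:169497934-169531464), a microtubule-binding subunit of the Ndc80 complex, was at 26.7, 29.3, 26.5 and 14.5 CPM in CML and 47.5, 73.9, 65.3 and 60.2 CPM in CML-TKI. The groups did not overlap, CML 5 being the lowest CML library and CML-TKI 1 the lowest CML-TKI library (log2 fold change 1.35, SE 0.29, edgeR adjusted p = 0.0174). The call held in 6 of the 8 fits that left out a library. Its partners in the complex did not pass the threshold, namely Ndc80 (log2 fold change 0.9001, adjusted p = 0.212), Spc25 (log2 fold change 0.86, adjusted p = 0.199) and Spc24 (log2 fold change 0.61, adjusted p = 0.294). The kinetochore kinesin Cenpe was at 44.2, 43.1, 46.5 and 6.83 CPM in CML and 83.2, 67.1, 64.2 and 102 CPM in CML-TKI. It did not overlap, but CML 5 was far below the other CML libraries (log2 fold change 1.18, SE 0.496, edgeR adjusted p = 0.167). Without CML 5 the log2 fold change of Cenpe was 0.82 (adjusted p = 0.0685). Cenpf, a protein of the outer kinetochore, was also far lower in CML 5, at 12.98 CPM, than in CML 1 to 3, at 75.8 to 92.8 CPM (log2 fold change 0.87, adjusted p = 0.305), and without CML 5 its log2 fold change was 0.51. The centromeric histone Cenpa was highest in CML 5 among the CML libraries (log2 fold change 0.62, adjusted p = 0.13).

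The chromosomal passenger complex moves from centromeres to the midzone and corrects faulty attachments. Its subunit survivin (Birc5, chr11:117849237-117855743), also known as an inhibitor of apoptosis, was at 9.61, 14.2, 11.7 and 22.4 CPM in CML and 33.4, 55.4, 59.9 and 47.8 CPM in CML-TKI. CML 5 was the highest CML library and still below CML-TKI 1, the lowest of its group (log2 fold change 1.75, SE 0.34, edgeR adjusted p = 0.0119). The mean was 14.5 ± 5.604 CPM in CML against 49.1 ± 11.6 CPM in CML-TKI (SD, n = 4 each). The call held in 6 of the 8 fits that left out a library, with a log2 fold change of 1.604 to 2.04. The other 3 subunits did not pass the threshold. The kinase Aurkb was at 62.5, 57.7, 53.9 and 69.9 CPM in CML and 60.8, 113, 43.6 and 133 CPM in CML-TKI, with CML-TKI 1 and 3 inside or below the CML range (log2 fold change 0.53, SE 0.34, edgeR adjusted p = 0.358). The scaffold Incenp did not overlap but had a small change (log2 fold change 0.47, adjusted p = 0.212), and borealin (Cdca8) overlapped (log2 fold change 0.29, adjusted p = 0.468).

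Of the 7 mitotic kinesins 1 passed the threshold, with a median log2 fold change of 0.77. Kif20a (MKLP2, chr18:34624624-34633277), which brings the passenger complex to the midzone, was at 49.5, 44.7, 45.9 and 36.9 CPM in CML and 114, 55.4, 87.1 and 92.3 CPM in CML-TKI. CML-TKI 2 was only just above CML 1 (log2 fold change 0.98, SE 0.25, edgeR adjusted p = 0.0388), and the call held in 2 of the 8 fits that left out a library, with an adjusted p of up to 0.112. Kif15, a spindle kinesin that works with Kif11, had the largest change of the kinesins without passing the threshold, at 57.9, 61.2, 53.9 and 13.2 CPM in CML and 70.00, 187, 109.97 and 194 CPM in CML-TKI. It did not overlap, and CML 5 was far below CML 1 to 3 (log2 fold change 1.596, SE 0.49, edgeR adjusted p = 0.0664). Kif15 passed the threshold in DESeq2 (adjusted p = 0.0136) and limma-voom (adjusted p = 0.0082). Kif11 (Eg5), which pushes the spindle poles apart, ranged from 58.3 CPM in CML 5 to 353 CPM in CML-TKI 4 (log2 fold change 0.77, adjusted p = 0.217), and CML-TKI 1 lay inside the CML range. Kif18a (log2 fold change 0.53, adjusted p = 0.562), Kif2c (log2 fold change 0.69, adjusted p = 0.143) and Kif4 (log2 fold change 0.68, adjusted p = 0.333), which act on microtubule ends and chromosome arms, overlapped between the groups. Without CML 5 the log2 fold change of Kif18a was 0.21.

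Of the 6 spindle microtubule-associated proteins 0 passed the threshold in edgeR (3 at an unadjusted p under 0.05), with 1, Prc1, past it in DESeq2 and 2, Nusap1 and Prc1, in limma-voom. Their median log2 fold change was 0.81. Prc1, which bundles the midzone microtubules, was at 79.7, 71.5, 73.9 and 37.97 CPM in CML and 145, 97.9, 119 and 139 CPM in CML-TKI. The groups did not overlap, and CML 5 was the lowest library (log2 fold change 0.93, SE 0.27, edgeR adjusted p = 0.0552). Nusap1, which stabilizes spindle microtubules near chromosomes, was at 54.5, 56.95, 54.1 and 29.4 CPM in CML and 57.7, 69.6, 149 and 106 CPM in CML-TKI, with CML-TKI 1 only just above CML 2 (log2 fold change 0.96, SE 0.34, edgeR adjusted p = 0.108). Tpx2, the activator of Aurora A, overlapped (log2 fold change 0.75, adjusted p = 0.125). So did Aspm (log2 fold change 0.86, adjusted p = 0.314), Ckap2 (log2 fold change 0.295, adjusted p = 0.606) and the microtubule polymerase Ckap5 (log2 fold change 0.34, adjusted p = 0.65). Without CML 5 the log2 fold changes of Aspm, Ckap2 and Ckap5 were 0.52, 0.079 and 0.028.

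Condensin compacts mitotic chromosomes. Of its subunits and the other chromosome genes, Ncapg (chr5:45669891-45700547), a condensin I subunit, passed the threshold. It was at 34.6, 50.6, 38.8 and 21.6 CPM in CML and 77.7, 115, 103 and 115 CPM in CML-TKI. The groups did not overlap (log2 fold change 1.4996, SE 0.29, edgeR adjusted p = 0.0109), and the call held in all 8 fits that left out a library, with a log2 fold change of 1.31 to 1.69. Ki-67 (Mki67), the surfactant of mitotic chromosomes and a common marker of dividing cells, was at 626, 718, 662 and 52.3 CPM in CML and 803, 1035, 1392 and 1409.9 CPM in CML-TKI. Every CML-TKI library was above every CML library, yet CML 5 was far below the other CML libraries and the gene did not pass the threshold (log2 fold change 1.17, SE 0.61, edgeR adjusted p = 0.262). Without CML 5 its log2 fold change was 0.78 (adjusted p = 0.075). Topoisomerase II alpha (Top2a), which untangles sister chromatids, was at 405, 436, 419 and 133 CPM in CML and 561, 713, 664 and 808 CPM in CML-TKI, also without overlap (log2 fold change 0.98, SE 0.35, edgeR adjusted p = 0.105). It passed the threshold without CML 5 (log2 fold change 0.699, adjusted p = 0.0433), and with all libraries in DESeq2 and limma-voom. The condensin ATPases Smc2 (log2 fold change 0.98, adjusted p = 0.197) and Smc4 (log2 fold change 0.93, adjusted p = 0.179) did not pass the threshold. Nor did Ncaph (log2 fold change 0.44, adjusted p = 0.341) and Ncapd2 (log2 fold change 0.202, adjusted p = 0.549). Ncapd2 averaged 379 ± 27.1 CPM in CML against 435 ± 66.9 CPM in CML-TKI (SD, n = 4 each).

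**Figure D3:**
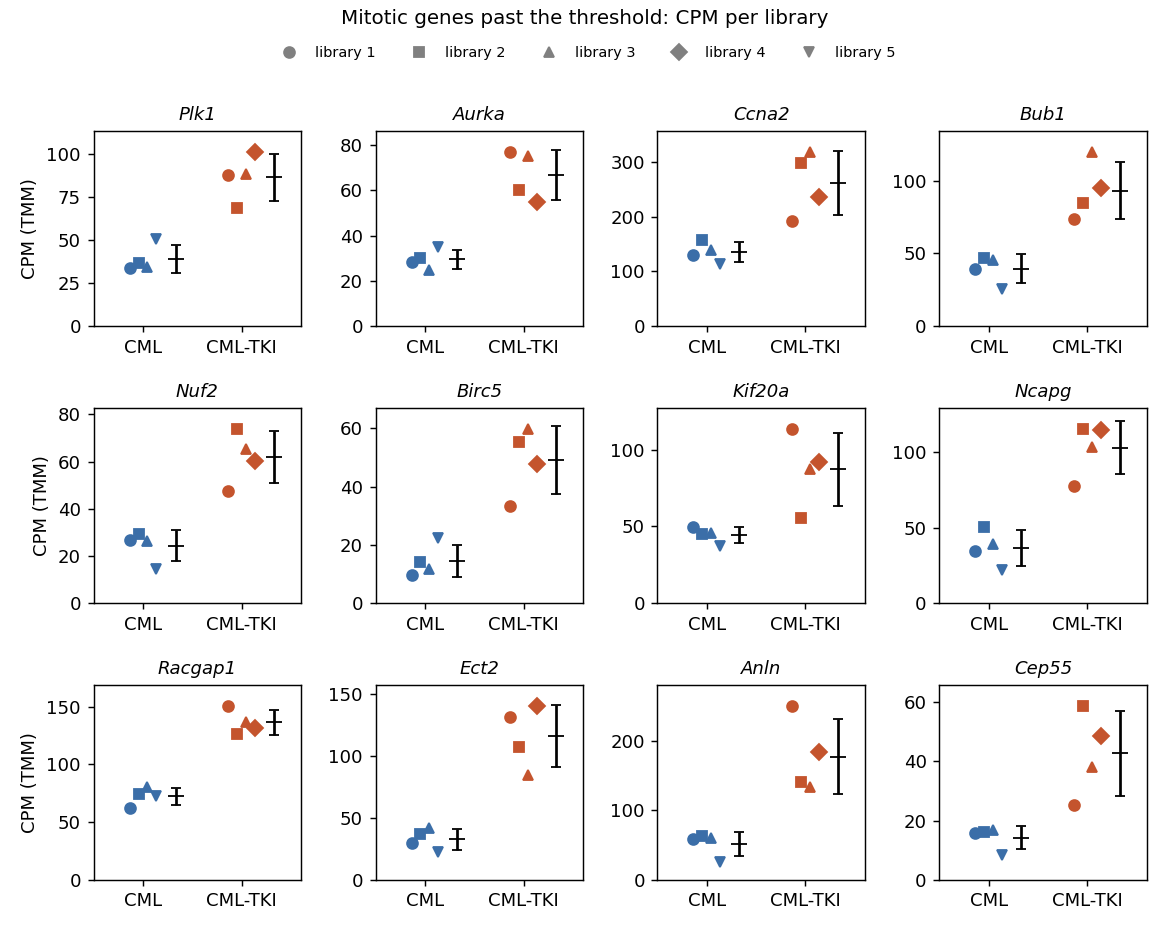
CPM of the 12 mitotic genes past the threshold in each CML (blue) and CML-TKI (red) library, with the mean and SD of each group beside them (n = 4) and marker shapes giving the library number. In every panel the lowest CML-TKI library is above the highest CML library, and CML 5 is the lowest CML library in 8 of the 12 panels.

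CML 5 differed from CML 1 to 3 by a pattern that the plot of CML 5 against transcript properties shows. It had the lowest CML value for 35 of the 54 genes and the highest for 15, whereas among all genes tested it was the lowest CML library for 40.9% and the highest for 40.8%. For 15 genes CML 5 was at least 2-fold below the mean of CML 1 to 3 and for 8 at least 4-fold, and the widest gap was that of Mki67, with 12.8-fold. Of the 15, 12 had transcripts of 4000 bases or more and 12 a GC content under 45%, with Ndc80 and Ckap2 among the shorter ones and Kif4 and Mki67 among those of higher GC content. In the 23 genes under 45% GC the median log2 ratio of CML 5 to CML 1 to 3 was -1.08, in the 17 of 45 to 50% it was -0.34 and in the 14 of 50% or more 0.29. In the 18 genes with transcripts of 4000 bases or more it was -1.59, and in the 36 shorter ones -0.25. Across the 54 genes the Spearman correlation of the ratio was 0.61 with GC content and -0.61 with length, close to the 0.62 and -0.52 across 11707 genes tested. These are descriptions across genes that share the same 4 libraries, and GC content and length are themselves related.

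**Figure D4:**
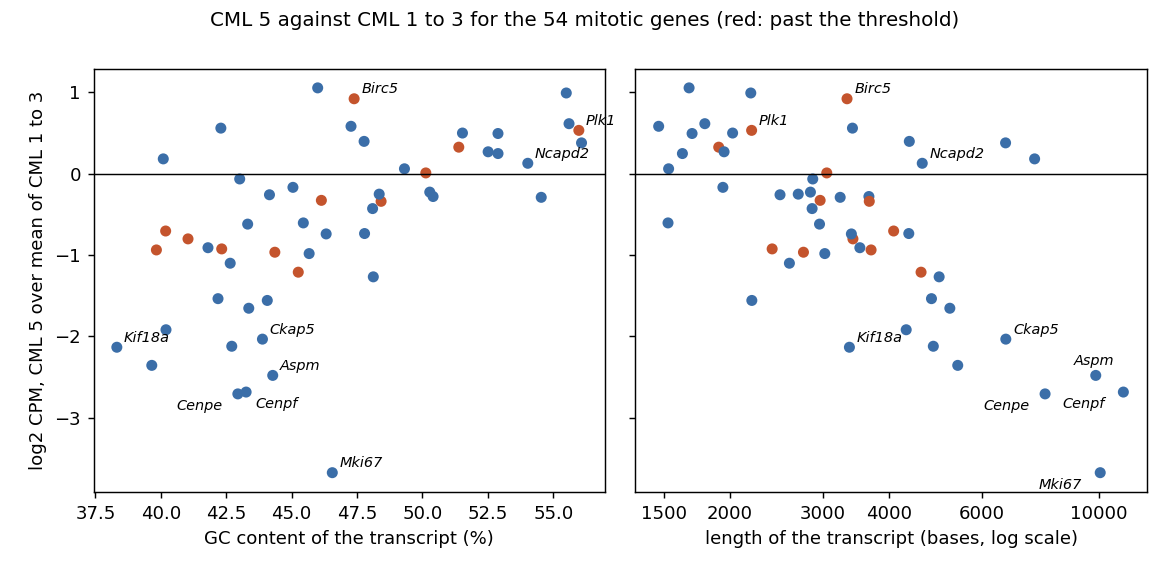
Log2 ratio of the CPM of CML 5 to the mean CPM of CML 1 to 3 for each of the 54 mitotic genes (y axis), against the GC content (left) and the length (right, log scale) of the longest coding transcript, with the genes past the threshold in red. Mki67, Cenpe, Cenpf and Aspm, all long, lie lowest, and genes of 50% GC or more lie near or above 0.

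The fold changes of the 54 genes also differed by GC content, and less so without CML 5. With all libraries the median log2 fold change was 0.93 in the 23 genes of low, 0.75 in the 17 of middle and 0.63 in the 14 of high GC content. Without CML 5 the medians were 0.65, 0.73 and 0.69. Without that library the log2 fold change was 0.502 for Kif11, 0.44 for Kif4 and 0.65 for Smc2, below their values with all libraries, and 0.38 for Bub3, 0.44 for Cdc20 and 0.88 for Pttg1, above them. In a fit in which the trend on GC content and length was removed from each library, chosen after seeing the data, the median of the 54 was 0.77 with 54 of 54 positive. In that fit 16 were past the threshold (beside 7.59% of all genes). All 12 calls of the first fit were among them, with Espl1, Kif15, Prc1 and Top2a in addition. Smaller log2 fold changes in that fit were those of Ccnb2 (0.11), Fbxo5 (0.301) and Bub3 (0.0011), and a larger one that of Ncapd2 (0.33), without a call for any of the 4.

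Levels can be compared between genes only per length of transcript. Per kilobase, the mean level in CML 1 to 3 was highest for Top2a (80.5 CPM per kilobase), Ncapd2 (79.9), Mki67 (66.5) and Ccna2 (47.95), and lowest for Ube2c (1.98), Pttg1 (3.34) and Birc5 (3.55). In CML-TKI LSCs it was highest for Top2a (132 CPM per kilobase), Mki67 (115), Ncapd2 (94.03) and Ccna2 (88.3), and Birc5 was at 14.7. CML 5 is left out of the CML level here because of the pattern above, and the lengths are those of the longest coding transcript of each gene and not of the transcripts present.

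Other lists of cell cycle genes were read in the same fit. Of 64 other mitotic genes 50 had a positive log2 fold change, with a median of 0.49, and 2 were higher past the threshold, which is 3.12% beside the 6.29% of all genes. The count depended on the tool, with 12 and 13 of the 64 higher in DESeq2 and limma-voom, beside 9.75% and 10.4% of all genes, and 17 of the 64 did not overlap, beside 10.3%. Those past it in edgeR were Cdca3, a G2 and M phase protein (log2 fold change 1.17, SE 0.25, edgeR adjusted p = 0.0187), and Ccnf, cyclin F (log2 fold change 0.93, SE 0.25, edgeR adjusted p = 0.0435), and with a library left out their adjusted p reached 0.0806 and 0.138. Among the 22 regulators of mitotic transcription, 3 were higher past the threshold (13.6%, beside 6.29% of all genes), and 6 and 7 in DESeq2 and limma-voom. The fold change was positive for 14 of the 22, with a median log2 value of 0.46 and a range of -1.22 to 2.91. Foxm1, the transcription factor of G2 and M phase genes, was at 49.7, 55.2, 45.3 and 63.5 CPM in CML and 109.8, 106, 113 and 98.99 CPM in CML-TKI. The 4 CML-TKI libraries were nearly even and did not overlap with the CML libraries (log2 fold change 1.0001, SE 0.19, edgeR adjusted p = 0.0115), and with a library left out its adjusted p reached 0.0585. Mybl2 (B-Myb), the partner of the MuvB core, was at 35.4, 46.02, 45.7 and 56.4 CPM in CML and 48.1, 139, 96.9 and 97.7 CPM in CML-TKI, with CML-TKI 1 inside the CML range (log2 fold change 1.05, SE 0.32, edgeR adjusted p = 0.0643). E2f2 (log2 fold change 2.91, SE 0.43, edgeR adjusted p = 0.00334) and E2f8 (log2 fold change 1.31, SE 0.36, edgeR adjusted p = 0.0483), of the E2F family, were the others that passed. E2f8 overlapped in CML-TKI 1, and its adjusted p reached 0.126 with a library left out. E2f2 was at 22.5, 19.2, 21.5 and 28.1 CPM in CML and 80.8, 187, 323 and 99.5 CPM in CML-TKI. It was highest in CML-TKI 3.

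Of 42 S phase genes 4 were higher (9.52%, beside 6.29% of all genes) and 1 lower past the threshold (beside 3.93% of all genes), with 33 positive and a median log2 fold change of 0.36. In DESeq2 and limma-voom 7 and 11 were higher, beside 9.75% and 10.4% of the genes with an adjusted p. The largest past the threshold were Pclaf, the PCNA clamp-associated factor (log2 fold change 2.47, SE 0.35, edgeR adjusted p = 0.00266), and Rrm2, the regulatory subunit of ribonucleotide reductase (log2 fold change 2.13, SE 0.33, edgeR adjusted p = 0.0038). Ccne1, cyclin E1, was the next of those that passed (log2 fold change 1.97, SE 0.33, edgeR adjusted p = 0.00627). Mcm10 was also higher (log2 fold change 1.01, SE 0.28, edgeR adjusted p = 0.0487) and the chromatin assembly factor subunit Chaf1b was lower (log2 fold change -1.18, SE 0.301, edgeR adjusted p = 0.0355). The core of the anaphase-promoting complex had 5 of 16 genes positive, a median of -0.16 and Anapc7 lower past the threshold (log2 fold change -0.77, SE 0.202, edgeR adjusted p = 0.0405). In cohesin 10 of 13 genes were positive, with a median of 0.32 that was 0.02 without CML 5, and the smallest edgeR adjusted p was 0.071 (Esco2), while 2 and 1 were higher in DESeq2 and limma-voom. With a library left out the adjusted p reached 0.127 for Mcm10, 0.102 for Chaf1b and 0.134 for Anapc7. The differences between these lists and the 54 mitotic genes were not tested.

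**Figure D5:**
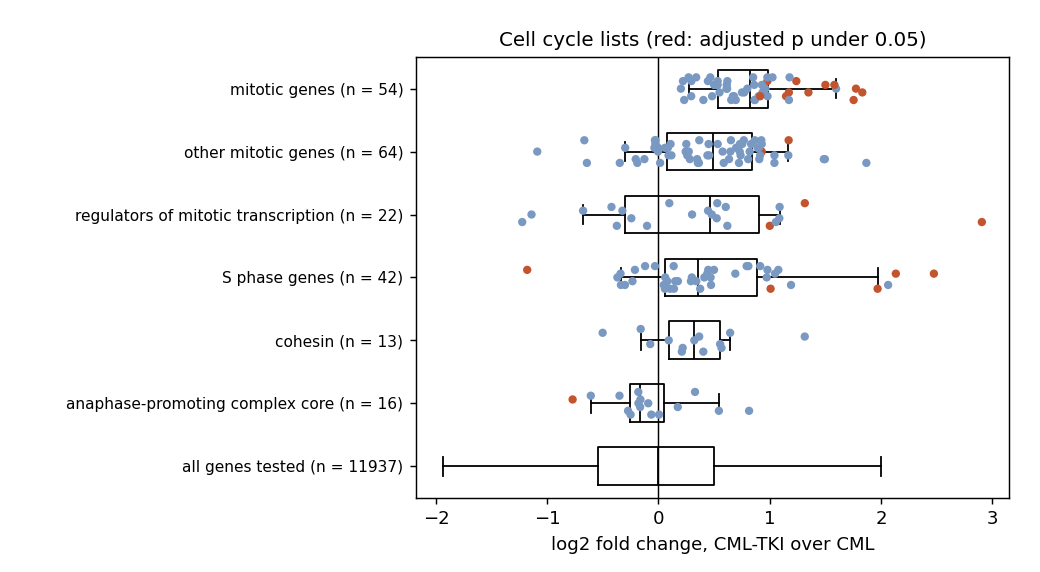
Log2 fold change, CML-TKI over CML, of the genes of each cell cycle list (points, red where the adjusted p is under 0.05), with boxes from the first to the third quartile, the median as a line and whiskers at the 5th and 95th percentiles, and a box for all 11937 genes tested. The 54 mitotic genes all lie above 0, while every other list reaches below it.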

How the data were processed

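RNA-seq of 4 CML and 4 CML-TKI libraries of sorted LSCs was analysed. According to the study's methods and the labels, RNA was isolated with the RNeasy Plus mini kit, Nextera XT libraries were made, and paired reads were aligned to mm10 with STAR 2.6.1d and quantified to RefSeq transcripts in Partek Flow (8.0 per the labels). The values deposited by the authors are estimated counts per gene, not normalized, and 8.32% to 22.1% of the entries per library had decimals. Reads shared by close copies and strand were treated in ways not given in the sources used here, so overlapping genes and gene copies are uncertain.

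Counts were rounded and tested with edgeR 4.0.16 (R 4.3.3): TMM normalization, filterByExpr (minimum count 10, minimum total 15), robust dispersions, quasi-likelihood test, and Benjamini-Hochberg adjustment over 11937 genes with a threshold of 0.05. Standard errors were derived from the log2 fold change and the F statistic. CPM are TMM-normalized. Library totals were 1041552 to 8620101, so 3 counts correspond to 0.406 to 3.27 CPM. The procedure was checked on simulated data. DESeq2 1.42.0, limma-voom (limma 3.58.1) and other alternatives are in the closing section. Transcript length and GC content are those of the longest coding GENCODE M21 transcript (GRCm38), known for 98.1% of the genes tested. Gene coordinates and promoters are RefSeq's for GRCm38.p6, the assembly of mm10.

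The members, lists and roles were chosen with earlier results of these data known. Genes given in full are those past the threshold and the 2 with the largest change in each role, Foxm1, Mybl2, and up to 3 genes of each other list with the largest change past the threshold. Cdk1, Pttg1, Cdc20, Mcm10, Chaf1b and Top2a were added after their values were seen.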

Additional observations from a re-analysis of the deposited data

Results flagged for a closer look

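In 14 of the 108 sets of 4 values (54 genes in 2 groups) 1 library lay apart from the remaining 3, where about 1 in 20, or 5.4, arises by chance, and genes measured in the same libraries are not independent. In 11 of the 14 it was CML 5 that was low, for Cenpe (6.83 CPM, next 43.1), Kif11 (58.3 CPM, next 166), Kif15 (13.2 CPM, next 53.9), Kif18a (7.65 CPM, next 31.7), Nusap1 (29.4 CPM, next 54.1), Aspm (26.5 CPM, next 141), Smc2 (22.8 CPM, next 109), Top2a (133 CPM, next 405), Mki67 (52.3 CPM, next 626), Anln (26.1 CPM, next 58.4) and Cep55 (8.33 CPM, next 15.8). CML 5 was high for Plk1 (50.7 CPM, next 36.6) and Espl1 (109 CPM, next 85.1). CML-TKI 2 was low for Kif18a (15.1 CPM, next 43.8). Among these, Plk1, Anln and Cep55 were past the threshold with all libraries. Without CML 5, Plk1 had a log2 fold change of 1.29 (edgeR adjusted p = 0.0137), Anln of 1.54 (0.016) and Cep55 of 1.38 (0.0505).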

How the results depend on the processing

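The median log2 fold change of the 54 mitotic genes was positive under every alternative run, from 0.62 to 0.92, and all 10 roles kept a positive median. The number past the threshold was 12, and between 11 and 18 with DESeq2, RLE, total counts, total counts without Rn45s, no filter, thinning to the smallest total, a threshold of 0.1 and the GC content and length trend removed, while limma-voom gave 22. With a library left out it ranged from 3 to 19. Of all genes tested, 729 of 11937 were higher with RLE, 679 of 11937 with total counts and 651 of 15571 without a filter. After thinning 605 of 9444 were higher, and at a threshold of 0.1 1095 of 11937. Over all genes the 1220 calls became 2420 with DESeq2, 2544 with limma-voom, 1957 at a threshold of 0.1 and 122 with CML 1 to 3 summed, where 0 mitotic genes passed, and 505 to 2504 with a library left out. The cause of these moves was not tested, except that summing leaves 2 CML libraries. After thinning, 1 mitotic gene was lower past the threshold, Pttg1 (log2 fold change -1.15, edgeR adjusted p = 0.0329), which has few counts, and Ube2c could no longer be tested. With a library left out, log2 fold changes ranged from -0.084 (without CML-TKI 1) to 0.89 for Pttg1, from -0.12 (without CML-TKI 1) to 0.502 for Cdc20 and from -0.038 (without CML-TKI 4) to 0.35 for Ccnb2, and their signs turned. Total counts without Rn45s moved the median of all genes to -0.14, and relative to it the median of the 54 was 0.81.

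The shared replicate numbers 1 to 3 were not taken as pairs, since the deviations of same-numbered libraries correlated by -0.022, 0.15 and 0.091 and not every library correlated best with its own number. With the replicate block on these 6 libraries 193 genes and 0 mitotic genes passed in edgeR. There 17 mitotic genes had an unadjusted p under 0.05, beside 9.25% of all genes, and no other tool was run with the block. Without the block on the same libraries 589 genes passed, with 400 of the 12065 tested higher. Of the mitotic genes 7 passed there, all of them higher. With the block Ccnb2 (-0.021), Kif18a (-0.045) and Ckap5 (-0.024) turned sign, and without it Ccnb2 was at -0.0082. Depth limits the low genes most, since in CML-TKI 3 the lowest of the 54 had 5 counts.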
